A study of Gallus gallus with 2 samples.

Results

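The Hoxd9 to Hoxd13 side of the chick HoxD cluster was examined as 7 neighbouring 5-kb bins of a capture Hi-C (CHi-C) matrix, at chr7:16360001-16395000 of galGal5. The 7 bins were chosen by a rule on position into which no contact value entered, although earlier results of these data were known. The bins run from the one after the higher-coordinate end of Hoxd8 (position 16357570) to the one that holds that of Hoxd13 (position 16392023). They are 7 of the 583 bins of the capture region that held read pairs in the forelimb library and of the 584 that did so in the hindlimb library. All 7 carried balanced values in both libraries. The question asked of them was how the preference of a bin passes from one flanking regulatory landscape to the other along the genes.

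In CHi-C, crosslinked chromatin is cut with a restriction enzyme (here DpnII) and ends held near each other are ligated, after which probes pull down the ligation products of a single locus. A sequenced read pair stands for 1 contact. The data comprised 1 library of whole forelimb buds and 1 of whole hindlimb buds, both from wild type White Leghorn chick embryos at stage HH20, with no treatment or engineered allele in either. Buds of many embryos were pooled per library, and a whole bud mixes proximal and distal cells. The forelimb matrix held 3096681 read pairs and the hindlimb matrix 3221107. With 1 library per limb there was no replicate, so no spread between embryos could be estimated, and every interval below is a 95% interval that covers counting error only.

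Hoxd genes encode homeodomain transcription factors that pattern the limb along its proximal to distal axis, and they are arranged on the chromosome in the order in which they are used. In limb buds the cluster lies between a pair of large regulatory landscapes, each a topologically associating domain (TAD), a stretch of chromatin that contacts itself more than its surroundings. The telomeric landscape (T-DOM) carries enhancers used in the proximal limb, the centromeric landscape (C-DOM) carries enhancers used in the digits, and genes in the middle of the cluster can be reached from both. Hoxd13, at the end of the cluster nearest C-DOM, is the gene most closely tied to digit formation. On galGal5 the coordinates of T-DOM (chr7:15925001-16315000) are below those of the genes and the coordinates of C-DOM (chr7:16415001-16695000) are above them, both taken as whole bins.

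In RefSeq's gene table, which is of another assembly and was used here for names and order only, HOXD8 is followed by HOXD9, HOXD10, HOXD11, HOXD12, HOXD13 and EVX2. On galGal5 itself, the positions that tie the bins to genes were the end of Hoxd8, the start of Hoxd11 (position 16377072) and the end of Hoxd13. Start and end of a gene mean its lower and higher coordinate here, not its direction of transcription. The 3 viewpoints from which the study ran circular chromosome conformation capture (4C), whose data were not used here, served as well. The locus-specific part of each viewpoint primer is given below 5′ to 3′ in lower case, because these primers mark the 3 viewpoints that serve here as landmarks along the bins. A viewpoint marks a place near the genes it is named for, not the extent of a gene. No base is capitalised.
Hoxd10-11: gagtcgccggctctttctatg
Hoxd12: aataccggactcgcaagg
Hoxd13: agaaattcacatttcaaagggttgac
The Hoxd10-11 viewpoint covers chr7:16370905-16378558 and lies in bins 3 and 4. The Hoxd12 viewpoint covers chr7:16382849-16387653 and lies in bins 5 and 6. The Hoxd13 viewpoint covers chr7:16391744-16396736 and starts in bin 7. These intervals are the ones listed with the primers, and viewpoint means the listed interval here. Each spans several DpnII fragments, so the viewpoint fragment itself may be a smaller part of it. Bins 1 and 2 lie between Hoxd8 and the Hoxd10-11 viewpoint and are called here the Hoxd9 side.

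Contacts were compared at matched distances. For each bin, balanced values at 80 to 300 kb were divided by the mean at the same distance over the capture region, giving a contact over expected, where 1 is the regional mean. At each of these 45 distances the lower partner of all 7 bins lies in T-DOM and the higher partner in C-DOM, and a distance was used only where both partners carried values. Side preference is the log2 ratio of the mean over expected on the T-DOM side to that on the C-DOM side, so that positive values lean to T-DOM and negative values to C-DOM. Bins past 1.5-fold to either side are called T-DOM-leaning or C-DOM-leaning, as a description of size and not as a test. The counting interval given for a bin is the exact Clopper-Pearson interval of the share of its raw read pairs that reached the T-DOM side over the same distances.

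Side preference fell at every step from the Hoxd9 side to Hoxd13, in both libraries, and changed sign under the Hoxd12 viewpoint. Bin 1 leaned to T-DOM by a log2 of 1.67 in forelimb (3.19-fold) and 1.89 in hindlimb (3.70-fold). Bin 7, which holds the end of Hoxd13, leaned to C-DOM, with -0.86 in forelimb and -0.83 in hindlimb (1.81-fold and 1.77-fold). From bin 1 to bin 7 the preference thus dropped by 2.53 on the log2 scale in forelimb and by 2.71 in hindlimb, over 30 kb between bin centres.

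The first bin (chr7:16360001-16365000) reached 1.53 times the expected contact on the T-DOM side and 0.479 times on the C-DOM side in forelimb, and 1.63 and 0.440 times in hindlimb. Of its raw read pairs at these distances, 77.4% reached the T-DOM side in forelimb (2009 of 2594 pairs, interval 75.8 to 79.0) and 80.8% in hindlimb (2324 of 2876 pairs, interval 79.3 to 82.2). The T-DOM partner was the higher of the pair at 42 of 42 usable distances in either library. Bin 1 was the least covered of the 7 bins, with 8067 read pairs in all in forelimb and 8407 in hindlimb.

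Bin 2 (chr7:16365001-16370000) had a preference of 1.60 in forelimb and 1.70 in hindlimb. Its raw share on the T-DOM side was 76.7% in forelimb (interval 75.4 to 78.0) and 79.1% in hindlimb (77.8 to 80.3). These intervals overlapped those of bin 1 in both libraries, so the order of bins 1 and 2 was not beyond counting error. Every other pair of neighbouring bins had raw shares with intervals that did not overlap, in both libraries.

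Bins 3 and 4 hold the Hoxd10-11 viewpoint, and the lower-coordinate edge of Hoxd11 lies inside bin 4. Bin 3 had a preference of 1.29 in forelimb and 1.32 in hindlimb, with raw T-DOM shares of 73.4% (interval 72.1 to 74.7) and 74.6% (73.3 to 75.8). Bin 4 had 0.70 in forelimb and 0.81 in hindlimb, with shares of 64.4% (62.8 to 66.1) and 66.6% (65.0 to 68.2). The step from bin 3 to bin 4 was the first large one, a fall by 0.59 in forelimb and by 0.51 in hindlimb. Bin 4 was also the first bin in which single distances went the other way in both libraries, with the C-DOM partner higher at 3 of 42 distances in each.

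Bins 5 and 6 hold the Hoxd12 viewpoint and stood on opposite sides of 0. Bin 5 still leaned to T-DOM, with 0.29 in forelimb and 0.21 in hindlimb, and raw shares of 57.3% (interval 55.7 to 58.8) and 57.4% (55.9 to 58.9). Bin 6 leaned to C-DOM on the balanced scale, with -0.19 in forelimb and -0.29 in hindlimb. Its raw shares on the T-DOM side were 49.4% in forelimb (interval 47.7 to 51.2) and 48.8% in hindlimb (47.2 to 50.5), and both intervals held 50%. At this depth a lean of bin 6 to either side was therefore not detectable from raw counts. The T-DOM partner was the higher one at 30 of 41 distances for bin 5 in forelimb and 28 of 41 in hindlimb, and at 11 and 10 of 41 for bin 6.

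The last bin (chr7:16390001-16395000) reached 0.687 times the expected contact on the T-DOM side and 1.24 times on the C-DOM side in forelimb, and 0.733 and 1.30 times in hindlimb. Its raw share on the T-DOM side was 37.9% in forelimb (1649 of 4346 pairs, interval 36.5 to 39.4) and 38.9% in hindlimb (1873 of 4809 pairs, interval 37.6 to 40.3). The C-DOM partner was higher at 40 of 40 distances in forelimb and 39 of 40 in hindlimb. Bin 7 was the mirror of bin 1 in sign but not in size, since the preference of bin 1 for T-DOM was farther from 0 than that of bin 7 for C-DOM in both libraries.

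**Figure D1:**
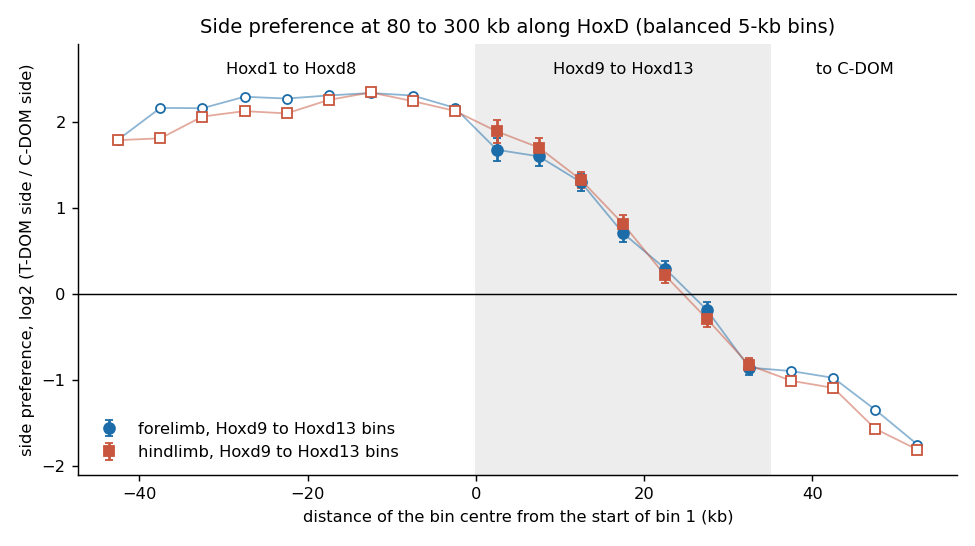
Side preference (log2, y axis) of balanced contacts at 80 to 300 kb against the distance of each bin centre from the start of bin 1 (kb). Filled symbols are the 7 Hoxd9 to Hoxd13 bins, with bars that carry over the counting interval of the raw share, and open symbols are the neighbouring bins. The 7 bins descend from 1.67 and 1.89 to -0.86 and -0.83 and cross 0 between bins 5 and 6.

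Both sides took part in the change. The T-DOM level of the bins fell at every step, from 1.53 to 0.687 (forelimb) and from 1.63 to 0.733 (hindlimb), and the C-DOM level rose at every step, from 0.479 to 1.24 and from 0.440 to 1.30. The T-DOM level was below the regional mean from bin 5 on, with 0.982 in forelimb and 0.994 in hindlimb there. The C-DOM level passed the regional mean at bin 7 in forelimb, and at bin 6 in hindlimb (1.07, against 0.971 in forelimb). Balancing sets the contacts of every bin to the same sum, so a bin that holds more on one side must hold less elsewhere, and the levels of both sides are not independent.

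**Figure D2:**
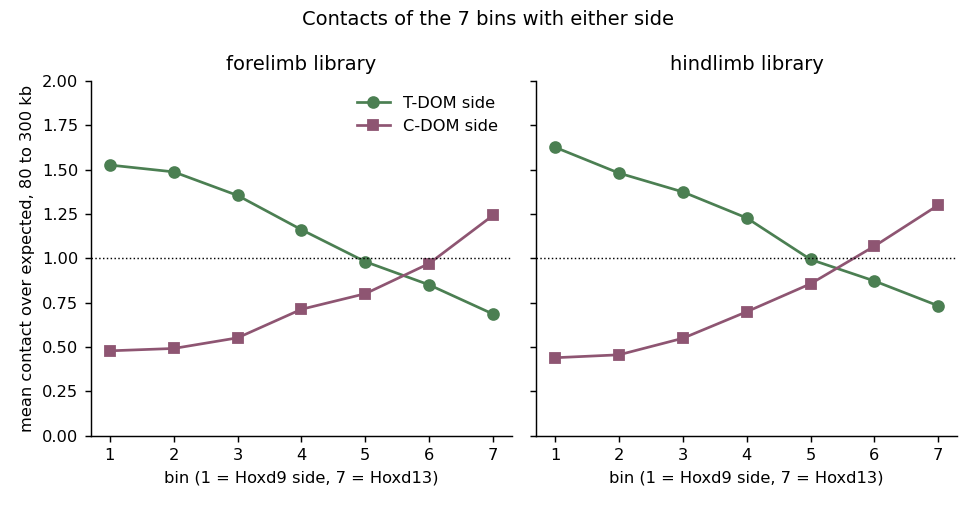
Mean contact over expected at 80 to 300 kb (y axis) on the T-DOM side (circles) and the C-DOM side (squares) for bins 1 to 7 (x axis), 1 panel per library, with the regional mean dotted. The T-DOM level falls from 1.53 to 0.687 (forelimb) and from 1.63 to 0.733 (hindlimb), and the curves cross between bins 5 and 6.

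By the 1.5-fold rule, 4 of the 7 bins (1 to 4) were T-DOM-leaning in either library. Over all scored bins of the capture region 23.1% were past that fold towards lower coordinates in forelimb (112 of 484) and 24.2% in hindlimb (118 of 487). Bin 7 alone was past it towards higher coordinates, where the background was 18% of all bins in forelimb (87 of 484) and 16.2% in hindlimb (79 of 487). Preferences of the size of bin 7 were common in the region, as 60 bins in forelimb and 65 in hindlimb had a lower value. Preferences above that of bin 1 were found in 12 forelimb bins and 7 hindlimb bins. The size of the change over the 7 bins stood out in both libraries, as a description. No other span of the same 30 kb with both ends scored fell by more, among 455 spans in forelimb and 459 in hindlimb, whose median change was 0.10 in either. Neighbouring spans overlap, so these numbers do not count independent places.

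The 9 bins of Hoxd1 to Hoxd8 showed no such descent. Their preference stayed between 1.79 and 2.33 in forelimb and between 1.78 and 2.34 in hindlimb, and from the first to the last of them it changed by 0.37 and 0.34 over 40 kb. The 4 bins between Hoxd13 and C-DOM went on downwards, from -0.90 to -1.75 (forelimb) and from -1.01 to -1.81 (hindlimb). All 9 of the former leaned to T-DOM past 1.5-fold and all 4 of the latter to C-DOM, in both libraries. For the 4 bins beyond Hoxd13, and for the Hoxd1 to Hoxd8 bins that start below position 16335001, some partners at 80 to 300 kb lie outside both landscapes. For the Hoxd1 to Hoxd8 bins from that position on, as for the Hoxd9 to Hoxd13 bins, none do.

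The position at which preference passed 0, by linear interpolation between bin centres, was 16385.5 kb in forelimb and 16384.6 kb in hindlimb. These lie 25.5 kb and 24.6 kb from the start of bin 1, both inside the Hoxd12 viewpoint. Carrying the counting intervals of the bins over gave 16384.5 to 16386.6 kb in forelimb and 16383.7 to 16385.5 kb in hindlimb, and these ranges overlapped. From raw counts, with no balancing, the position was 16387.1 kb in forelimb and 16386.8 kb in hindlimb, above both ranges.

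The passage was then followed inside the bins with single read pairs, each placed at the middle of its DpnII fragment, in steps of 1 kb. Of the 35 steps, 25 had a T-DOM share with an interval wholly above 50% in either library. The interval lay wholly below 50% in 6 steps in forelimb and in 7 in hindlimb. The last step above 50% began 26 kb from the start of bin 1 in forelimb (53.3% of 1006 pairs, interval 50.1 to 56.4) and 24 kb in hindlimb (54.3% of 1478 pairs, interval 51.8 to 56.9). The first step below it began at 29 kb in forelimb (41.4% of 379 pairs, interval 36.4 to 46.6) and at 27 kb in hindlimb (46.9% of 1159 pairs, interval 44.0 to 49.9). The raw share therefore passed from above 50% to below it within bins 5 and 6, and from 30 kb on, within bin 7, no step of either library reached above 44.1%.

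**Figure D3:**
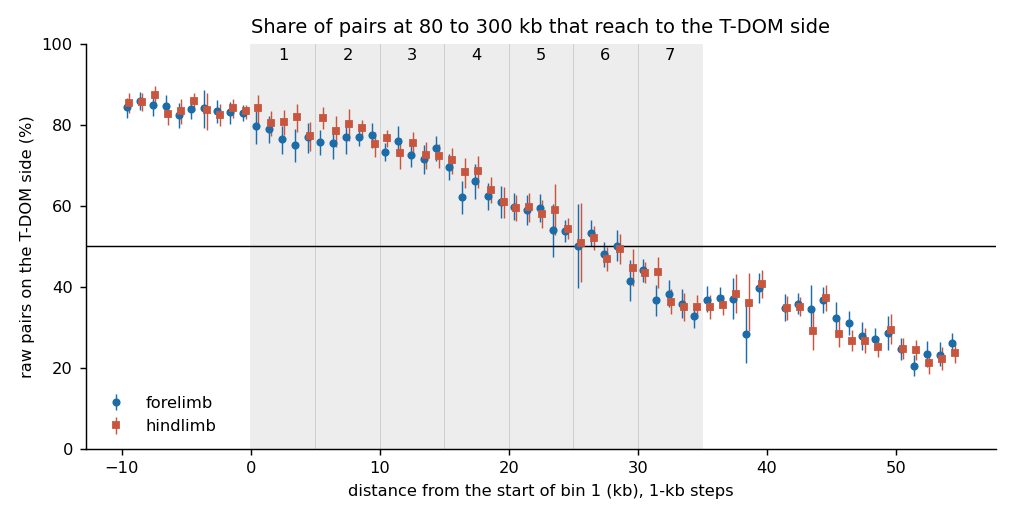
Share of raw read pairs at 80 to 300 kb that reached the T-DOM side (%, y axis) in 1-kb steps from the start of bin 1 (kb, x axis), with exact 95% intervals for counting error. The numbers 1 to 7 name the bins inside the grey band. Shares in the 7 bins run from 79.7% to 32.8% (forelimb) and from 84.2% to 35.0% (hindlimb).

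At fragment level the same descent was seen, with more scatter. The 7 bins held 53 fragments with at least 100 such pairs in forelimb, of which 37 lay above 50%, 11 below it and 5 had an interval that held it. In hindlimb there were 55, of which 37 lay above, 10 below and 8 held it. Shares of single fragments ran from 28.1% to 82.5% (forelimb) and from 27.0% to 84.7% (hindlimb). The read pairs of a bin came from few ends, since bin 3 held 7 fragments and bins 6 and 7 held 12 each. Many read pairs joined the same pair of fragments, so they may not be independent molecules. With each pair of fragments counted once, bin 1 kept 1768 of 2594 pairs in forelimb, and the shares on the T-DOM side ran from 72.5% in bin 1 to 42.9% in bin 7 in forelimb and from 75.5% to 43.6% in hindlimb. Counting once also drops separate contacts between the same fragments. It thins the fuller side more, which draws shares towards 50%. Forelimb bin 1 kept 1282 of 2009 pairs on the T-DOM side and 486 of 585 on the C-DOM side.

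Preference depended on the distance at which it was measured. At 10 to under 80 kb, where partners lie in or next to the cluster, it lay closer together, between -0.17 and 0.68 in forelimb and between -0.23 and 0.75 in hindlimb. Bins 2 and 3 were past 1.5-fold towards lower coordinates here in both libraries, with 0.67 and 0.68 in forelimb and 0.61 and 0.75 in hindlimb. No bin was past it towards higher coordinates. From raw counts bins 2 and 3 had 0.49 and 0.42 in forelimb and 0.41 and 0.42 in hindlimb, which did not reach 1.5-fold. Many lower partners in this band lie in Hoxd1 to Hoxd8, so this is not a lean to T-DOM itself. Preference was widest at 80 to under 190 kb. There bin 1 had 1.86 in forelimb and 2.10 in hindlimb, and bin 7 had -0.89 and -0.81. At 190 to 300 kb bin 1 had 1.56 and 1.75, and bin 7 had -0.84 in both. In forelimb bin 2, with 1.69, stood above bin 1 in this farther band, which was the only step upwards in either of these bands. In narrower classes of 20 kb other steps went upwards too. In hindlimb bin 2 had 2.58 against 2.21 in bin 1 in the class that starts at 220 kb.

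At over 300 to 600 kb partners lie partly outside T-DOM and C-DOM, and at over 600 to 1200 kb all lie outside both. Preference beyond 300 kb is therefore one for lower or higher coordinates, not for a landscape. For bins 1 to 4 the lean to lower coordinates was smaller than at 80 to 300 kb, and smallest at over 600 to 1200 kb. At over 300 to 600 kb bin 1 had 1.19 in forelimb and 1.09 in hindlimb, while bin 7 had -0.76 and -0.90. Bin 5, which leaned to T-DOM at 80 to 300 kb, had -0.11 in forelimb and -0.07 in hindlimb here, with raw shares of 48.6% (interval 47.0 to 50.1) and 49.6% (48.1 to 51.2) that held 50%. At over 600 to 1200 kb bin 1 was down to 0.29 and 0.44, bin 4 was at -0.01 and -0.02, and bin 7 was at -0.70 and -0.64. On the balanced scale the point of balance between lower and higher coordinates moved towards the Hoxd9 side accordingly. It was at 16381.5 kb in both libraries at over 300 to 600 kb. At over 600 to 1200 kb it was at 16377.3 kb in forelimb and 16377.1 kb in hindlimb, near the lower-coordinate edge of Hoxd11. Raw shares on the lower side in this band were 54.0% for bin 4 in both libraries. Their intervals, 51.3 to 56.7 in forelimb and 51.1 to 56.9 in hindlimb, lay above 50%. For bin 5 the raw shares were 51.3% (49.0 to 53.6) and 47.7% (45.3 to 50.2), and both intervals held 50%. From raw counts the change of side thus came beyond bin 4 in both libraries.

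**Figure D4:**
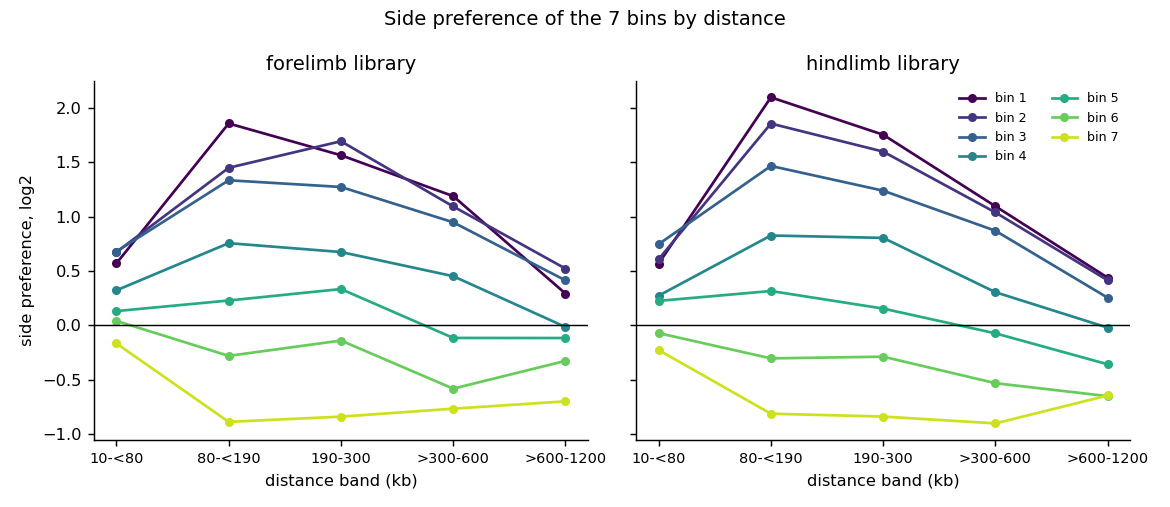
Side preference (log2, y axis) of bins 1 to 7 (dark to light) in 5 bands of distance (kb, x axis), 1 panel per library. The curves of bins 1 to 3 peak at 80 to 300 kb and approach 0 farther out, bin 5 passes below 0 beyond 300 kb, and bin 7 stays between -0.64 and -0.90 in all bands from 80 kb on.

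Contacts with named elements were read for 5 elements of T-DOM and 8 of C-DOM, each conserved element taken with 10 kb on either side. In T-DOM these were region a and region b, stretches over which the study compared histone acetylation between limb buds, and CS39, CS65 and CS93, conserved sequences. In C-DOM they were islands I to V, Prox and CsB, known in the mouse as digit enhancers, and CsA, a conserved sequence beside CsB. Windows of neighbouring elements overlap in places, so the elements are not independent. On the balanced scale all 5 T-DOM elements were contacted less by bin 7 than by bin 1 and all 8 C-DOM elements more, in both libraries, and each difference was past 1.5-fold. For the T-DOM elements the median log2 of bin 7 over bin 1 was -0.84 (forelimb) and -0.81 (hindlimb), and for the C-DOM elements 1.30 and 1.16.

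CS39 was the T-DOM element that bins 1 and 2 contacted most in both libraries, closely followed by region b in forelimb bin 1. Its contact over expected was 2.34 in forelimb bin 1 and 2.63 in hindlimb bin 1, highest in bin 2 (2.53 and 2.65), 1.90 and 2.23 in bin 4, and 1.10 and 1.17 in bin 7. The contacts of a bin with CS39 were also set against its contacts at the same distances on the other side, which does not depend on the coverage of the bin itself. On that scale bin 1 had a log2 of 1.89 in forelimb and 2.57 in hindlimb, and bin 5 had 0.89 and 0.85. Bin 6 had 0.09 and 0.15, and bin 7 had -0.83 and -0.84. The preference for CS39 over its mirror was thus still past 1.5-fold in bin 5, near 0 in bin 6 and reversed at Hoxd13.

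CS93, an element with limb enhancer activity that lies inside region a, went from 1.80 in bin 1 to 1.00 in bin 7 in forelimb and from 1.62 to 0.991 in hindlimb. In forelimb it was highest in bin 2 (1.91), where hindlimb had 1.47. Hindlimb was the lower library in bins 1 to 4 and 7 and the higher in bins 5 and 6. A difference between libraries at CS93 was not tested. CS65, farther out, went from 1.62 to 0.908 and from 1.52 to 0.873. Region a fell at each of the 6 steps in both libraries, from 1.62 to 0.849 (forelimb) and from 1.71 to 0.844 (hindlimb). Region b, at the far end of T-DOM, stayed above the regional mean in all 7 bins, at 2.32 in bin 1 and 1.33 in bin 7 in forelimb and at 2.21 and 1.39 in hindlimb. Raw counts over expected keep the unequal coverage of the bins, and bin 7 held more read pairs in all (15444 in forelimb, 16116 in hindlimb) than bin 1. With raw counts the log2 of bin 7 over bin 1 ran from -0.13 to 0.15 for the 5 T-DOM elements in forelimb and from -0.21 to 0.26 in hindlimb, and 4 and 3 of them were above 0. Bin 3 was closer to bin 7 in coverage, with 14542 read pairs in forelimb and 14715 in hindlimb. From bin 3 to bin 7 the raw count over expected went from 3.18 to 1.65 for CS39 and from 3.24 to 1.96 for region b in forelimb, and from 3.43 to 1.88 and from 3.19 to 2.11 in hindlimb.

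In C-DOM, bin 7 had its highest contacts over expected with the islands far from the genes. Island II had 0.816 in bin 1 and 2.01 in bin 7 in forelimb, and 0.612 and 2.16 in hindlimb. Island I had 1.01 and 2.66 in forelimb and 1.30 and 3.07 in hindlimb, from only 2 unmasked bins in forelimb and 3 in hindlimb. Against its mirror on the T-DOM side, island II had a log2 of -0.97 in forelimb and -1.37 in hindlimb in bin 1. It had -0.01 and 0.12 in bin 5, and 1.03 and 1.00 in bin 7. For bin 7 the mirror of the CS39 window lies in the island II window, and the mirror of island II overlaps the CS39 window. The values of CS39 and island II against their mirrors in bin 7 thus rest largely on the same contacts and are not separate results. Island V rose at each of the 6 steps in both libraries, from 0.499 to 1.23 (forelimb) and from 0.381 to 1.13 (hindlimb).

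The C-DOM elements nearest the genes stayed below the regional mean in every bin, bin 7 included. For bin 7 their mirrors at lower coordinates, which for Prox lie inside the cluster, were lower still. These were 0.560 in forelimb and 0.544 in hindlimb for Prox, 0.362 and 0.409 for CsA, and 0.446 and 0.387 for CsB. Against these mirrors bin 7 had a log2 of 0.12 and 0.16 for Prox, 0.89 and 0.53 for CsA, and 0.70 and 0.81 for CsB. Prox, the nearest, had 0.379 in bin 1 and 0.608 in bin 7 in forelimb, and 0.380 and 0.606 in hindlimb. CsB had 0.236 and 0.726 in forelimb and 0.328 and 0.677 in hindlimb. CsA had 0.238 and 0.669 in forelimb and 0.338 and 0.590 in hindlimb, and its lowest values rested on 32 forelimb and 37 hindlimb read pairs in bin 1. With raw counts all 8 C-DOM elements were again higher in bin 7 than in bin 1, by a log2 of 1.69 to 2.44 in forelimb and of 1.74 to 2.67 in hindlimb.

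**Figure D5:**
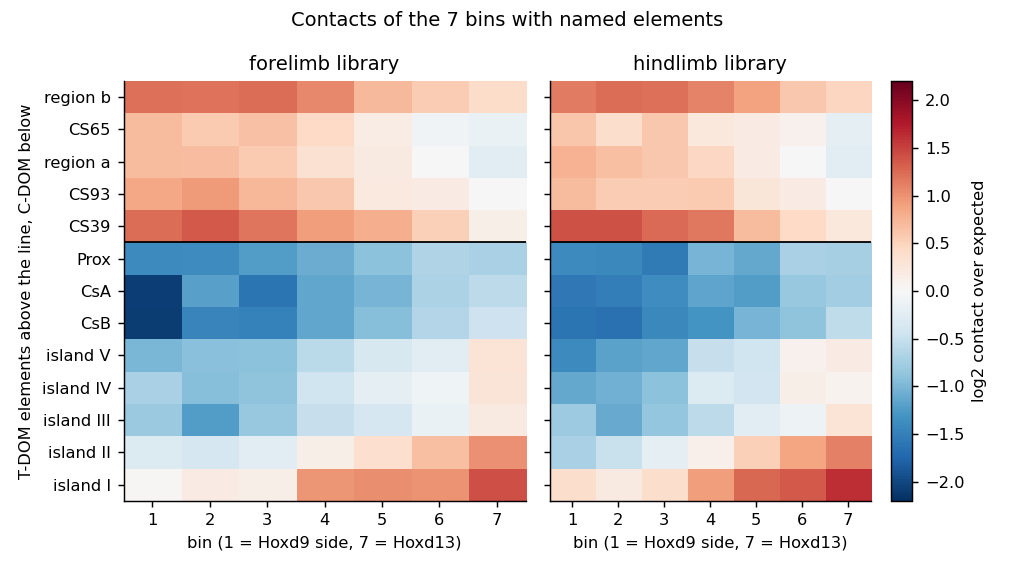
Contact over expected on the log2 scale (colour; red above and blue below the regional mean) of bins 1 to 7 (x axis) with 5 T-DOM elements above the line and 8 C-DOM elements below it, ordered by position (y axis), 1 panel per library. CS39 fades from 2.34 and 2.63 (not log) in bin 1 to 1.10 and 1.17 in bin 7, and island II gains from 0.816 and 0.612 to 2.01 and 2.16.

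Many of the leading single partner bins recurred along the genes. For each bin, library and side the 3 partner bins with the highest contact over expected at 80 to 300 kb were taken, which gave 42 on each side. On the T-DOM side 35 of the 42 touched the CS39 window, 6 touched the CS93 window and 1 touched no listed element. The partner at chr7:16140001-16145000, in the CS39 window, was among the leading 3 in 13 of the 14 combinations of bin and library, with 1.19 to 3.18 times the expected contact and 58 to 134 read pairs. On the C-DOM side 35 of the 42 touched the island II window, 3 the island I window, 1 the island III window and 3 none. The partner at chr7:16650001-16655000, in the island II window, was among the leading 3 in 11 of the 14, with 0.871 to 2.62 times the expected contact. The limit of 300 kb bears on this, since the leading partner in the island I window (chr7:16685001-16690000) is within reach of bins 6 and 7 only. On the T-DOM side the limit leaves region b and CS65 out of reach of all 7 bins. In bin 7 region b had 1.33 times the expected contact in forelimb and 1.39 in hindlimb, against 1.10 and 1.17 for CS39. In bins 1 and 2 CS39 was the higher one in both libraries. For bin 7 the leading partner was in the island I window in forelimb (2.94 times, 73 pairs) and in the island II window in hindlimb (2.95 times, 116 pairs). On the T-DOM side the leading partner of bin 7 was in the CS39 window in forelimb (1.17 times, 65 pairs) and in the CS93 window in hindlimb (1.32 times, 61 pairs).

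Within the cluster the bins contacted each other less than the region does at the same distances. Among the 15 pairs of the 7 bins that lie 10 kb or more apart, none was above the regional mean in either library. The values ran from 0.486 to 0.896 (forelimb) and from 0.427 to 0.897 (hindlimb), and the lowest in both was the pair of bins 1 and 7. Contacts with Hoxd1 to Hoxd8 fell at each step from bin 3 to bin 7 in both libraries. They were 0.948 and 0.949 times expected for bins 2 and 3 in forelimb, and 0.495 for bin 7. In hindlimb they were 0.844 and 0.884 for bins 2 and 3, and 0.459 for bin 7. Contacts with the bins between Hoxd13 and C-DOM went the other way, from 0.546 in bin 1 to 0.815 in bin 7 in forelimb and from 0.442 to 0.769 in hindlimb, and were highest in bin 5 (0.862) in forelimb and in bin 6 (0.884) in hindlimb.

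The libraries were compared bin by bin with a two-sided Fisher exact test on raw pairs by side, a comparison of 2 libraries rather than of limb types that takes read pairs as independent. P-values were adjusted with the Benjamini-Hochberg method over all 484 bins scored in both. None of the 7 bins passed an adjusted p of 0.05, against 2.07% of all scored bins (10 of 484). At an unadjusted p under 0.05 there were 2 of the 7, against 13.8% of all (67 of 484). By the Fisher exact test these were bin 1, where the hindlimb share was 3.36 points above the forelimb share (p = 0.00239, adjusted p = 0.0889), and bin 2, where it was 2.38 points above (p = 0.00995, adjusted p = 0.156). On the balanced scale the hindlimb excess in side preference was 0.21 in bin 1 and 0.10 in bin 2, and it depended on the setting. The 9 settings compared share the same reads and include raw counts and a filter that changed no value. Over them the excess ran from 0.02 to 0.29 in bin 1, above 0 in all 9. In bin 2 it ran from -0.10 to 0.41, above 0 in 7 settings and below 0 in 2. The log2 odds ratio of hindlimb to forelimb was 0.29 in bin 1 (Wald interval 0.11 to 0.48) and 0.20 in bin 2 (0.05 to 0.35). For the Hoxd13 bin it was 0.06 (interval -0.06 to 0.18, Fisher exact test, adjusted p = 0.783), and for the Hoxd12 bins 0.01 (-0.12 to 0.13) and -0.03 (-0.17 to 0.11). A p that misses the threshold does not show that the libraries are alike. In bins 3 to 7 no interval reached beyond 0.29 on this scale. These intervals take read pairs as independent and hold no spread between embryos, so they set no limit on a difference between limbs.

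Read pairs of each library came from 4 sequencing lanes. The labels do not say whether these were loaded from 1 library preparation. The lanes were treated as runs of 1 library, and on that reading they show technical spread only. The share of bin 1 on the T-DOM side ran from 75.0% to 78.8% over the forelimb lanes and from 79.5% to 81.9% over the hindlimb lanes, which did not overlap. In bin 2 the lanes ran from 75.2% to 78.2% and from 78.2% to 80.1%. For the Hoxd13 bin the raw log2 preference ran from -0.83 to -0.65 over the forelimb lanes and from -0.84 to -0.58 over the hindlimb lanes. All 6 steps were downwards in each lane except forelimb lane 4, where 5 of 6 were, and the raw point of balance ran from 16386.2 to 16388.1 kb in forelimb lanes and from 16385.9 to 16387.7 kb in hindlimb lanes.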

How the data were processed

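CHi-C was performed on 1 forelimb bud and 1 hindlimb bud library, grouped by the tissue in their labels. The authors, as their methods state, trimmed reads with cutadapt, assigned pairs to DpnII fragments of galGal5 with HiCUP and its aligner Bowtie2, took the middle of a fragment as the position of a mate, retained pairs inside the capture region in which the mapping quality of each mate was above 30, and binned and balanced these with cooler. Read pairs per pair of bins are given as counts in the deposited raw matrices. The deposited balanced matrices hold a signal in which each unmasked bin has the same sum, so coverage of bins and depth of libraries are levelled. The deposited lists of valid pairs give the fragment of either mate and its mapping quality, a score. Lists were filtered here at 30 or more. The 5-kb matrices rebuilt from them had the deposited totals, and the rows of the 7 bins were identical. Elsewhere 102 bin pairs differed from the deposited matrix in forelimb and 98 in hindlimb.

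Expected values were means of unmasked balanced values at each distance in the capture region. Bins were scored where at least 50% of the 45 distances could be used. Shares have exact Clopper-Pearson intervals at 95%. PCR copies were not marked by molecular identifiers, so intervals cover counting error only. The scripts (Python 3.11.15, scipy 1.17.1) were tested on simulated data. The 7 bins, the elements and the lists were chosen with earlier results of these data known. All 7 bins, the 13 listed elements and the 3 leading partner bins per side were named by rule. Positions of Hoxd9, Hoxd10 and Hoxd12 on galGal5, chromosome 2 matrices and expression or histone data were not used here.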

Additional observations from a re-analysis of the deposited data

How the results depend on the processing

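Preference was recomputed from raw counts, as a median over distances, at 80 to under 190 kb, at 190 to 300 kb, at 20 to 600 kb, from the 10-kb matrices and from raw counts of all mapping qualities. Leaving out thinly covered partner bins left every value as it was, so it was no test. Under each of the other settings, bins 1 to 4 stayed above 0 and bin 7 below 0 in both libraries, while bin 5 (hindlimb, -0.0029 with the 10-kb matrices, where it shares a bin with bin 6) and bin 6 (forelimb, up to 0.09) changed side once each. From raw counts bin 1 had 2.07 in hindlimb, bin 7 had -0.71 (forelimb) and -0.65 (hindlimb), and the crossing was at 16387.1 kb and 16386.8 kb. With all mapping qualities bin 7 was -0.70 and the crossing 16386.5 kb in hindlimb. The median over distances gave 1.85 for bin 1 in forelimb. The range of 80 to under 190 kb gave 1.86 and 2.10 for bin 1. The range of 20 to 600 kb gave 1.31 and 1.32 for bin 1, -0.76 for bin 7 in forelimb, and crossings at 16382.8 kb and 16382.9 kb. The causes were not tested. The other crossings and values of bins 1 and 7 moved by less than the counting interval. Of the 112 recomputed side preferences of all 7 bins, 51 moved by more than it and none reversed. Among the moved ones were bins 2 to 6 from raw counts, in both libraries. There bin 3 went from 1.29 to 1.47 in forelimb and bin 5 from 0.21 to 0.43 in hindlimb. The count of 10 bins that differed between libraries by the Fisher exact test was 15 at 20 to 600 kb and 2 with all mapping qualities. It was 0 with each pair of fragments counted once (6 at an unadjusted p under 0.05). Counting once also lowers the counts, so fewer calls there do not show that the libraries are alike. None of the 7 bins passed an adjusted p of 0.05 in any setting. From raw counts, which keep the unequal coverage of bins, the log2 of bin 7 over bin 1 turned positive for region b (0.13 in forelimb, 0.26 in hindlimb), CS65 (0.090 and 0.101), CS93 (0.15 and 0.25) and region a in forelimb (0.011). The hindlimb excess in side preference of bin 1 was down to 0.02 as a median over distances and at 20 to 600 kb. That of bin 2 was below 0 at 190 to 300 kb (-0.10) and at 20 to 600 kb (-0.01). No paired analysis was possible because each group has 1 library. Depth limits the 1-kb steps (down to 96 forelimb and 108 hindlimb pairs), the elements in bin 1 (down to 27 forelimb pairs with island I) and the leading partner bins (down to 17 pairs), and the spread between embryos is unknown.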
